A study of Homo sapiens with 12 samples.

Results

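Whether the transcriptional response to erastin depends on WWTR1 was measured in the RCC4 human clear cell renal carcinoma line as an interaction, the erastin response of WWTR1-silenced cells minus the erastin response of control cells, on the log2 scale. All 12 of 12 arrays entered one fit, and the interaction was estimated for all 11963 genes, each represented by its brightest probe set. Cells received a non-targeting siRNA (siNT) or an siRNA against WWTR1 (also called TAZ; siTAZ) for 2 days and then spent 7 hours in DMSO or in 1 µM erastin. The 4 groups, each of 3 arrays that the submitters call biological triplicates, were siNT with DMSO, siNT with erastin, siTAZ with DMSO and siTAZ with erastin. All groups share the RCC4 background, a line without functional VHL, and the labels give 1 cell line, 1 dose and 1 time point. The labels do not say whether several siRNA sequences against WWTR1 were used, so an effect of the siRNA apart from WWTR1 loss cannot be told apart from it. The submitters do not state that triplicates came from separate days, so p-values measure the spread between these arrays.

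WWTR1 encodes TAZ, a transcriptional coactivator held in check by the Hippo kinases that, with its paralogue YAP1, acts on DNA through TEAD factors. Erastin blocks system xc-, the cystine importer formed by SLC7A11 and SLC3A2. Cells short of cystine make less glutathione, the lipid hydroperoxide reductase GPX4 loses its cofactor, and cells can die by ferroptosis. The same shortage activates the amino acid response, in which ATF4 and C/EBP family partners induce amino acid synthesis enzymes, transporters and aminoacyl-tRNA synthetases.

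WWTR1 signal was 12.33, 12.29 and 12.24 (log2) in siNT cells with DMSO and 12.35, 12.19 and 12.27 with erastin. It was 9.46, 9.31 and 9.26 in siTAZ cells with DMSO and 9.10, 9.09 and 9.25 with erastin, with no overlap between siNT and siTAZ arrays. Its own interaction was -0.18 ± 0.10 (SE; 3 arrays per group), so the depth of silencing differed between DMSO and erastin by less than the fit could separate (95% confidence interval -0.40 to 0.04). The epithelial and renal markers KRT8, KRT18, KRT19, EPCAM, PAX8 and PAX2, and also CDH2 and VIM, lay above a dim level of 5.13 set from leukocyte and erythroid markers, whereas CDH1 averaged 3.21. The leukocyte, erythroid, endothelial and fibroblast marker lists contained no gene with an unadjusted interaction p under 0.05. Mean signal over the 17 leukocyte markers ran from 4.52 to 4.82 over the 12 arrays.

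No gene passed the test for an interaction. In the limma fit, 0 of 11963 genes had a Benjamini-Hochberg adjusted p under 0.05 (0%), and 764 (6.39%) had an unadjusted p under 0.05, of which 476 (3.98%) lay above 0 and 288 (2.41%) below. The lowest adjusted p, 0.0583, was shared by ASNS, INHBE and SLC7A11, all genes of the amino acid response, and the next gene stood at 0.282. The call for these 3 genes turned on the processing: they passed after centring each array on its median, after a second quantile normalisation, after leaving out genes under the 25th percentile of signal and with array weights. A trended variance prior called 11 genes, 7 above 0 and 4 below, and leaving out genes under the 50th percentile of signal called 8, 6 above 0 and 2 below. Fits with the mean of all probe sets per gene, a robust prior, the replicate number as a block or the second brightest probe set called none.

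Interactions were small. The median size was 0.09 and the 95th percentile 0.28, and 34 genes reached 0.5, of which 28 had their highest group mean above the dim level. Other groups of these 28 can lie under that level, so not every size rests on signal above it. INHBE alone reached 1, against a siTAZ DMSO signal under that level. The median standard error was 0.11, against 0.08 for a single erastin response. The 95% confidence interval lay within ±0.5 for 9948 genes (83.2%) and within ±1 for 11936 (99.8%), which bounds the measured interaction for most genes. These counts include the 3085 genes under the dim level, where a narrow interval does not bound the change in RNA. A value of the size of that of ASNS did not pass adjustment.

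Erastin itself moved few genes in either background. In siNT cells 96 genes changed (0.802%), 63 up (0.527%) and 33 down (0.276%), and in siTAZ cells 67 changed (0.560%), 55 up (0.460%) and 12 down (0.100%). The 33 genes called in both moved the same way in both, which is 34.4% of the siNT calls and 49.3% of the siTAZ calls. The responses share no array, and over all genes Pearson's correlation between them was 0.29 and Spearman's 0.17; genes within an array are not independent replicates. Whole-culture signal cannot tell fewer responding cells from a smaller response per cell. A gene called in only 1 background is not thereby a gene whose response differs, since none of the differences passed the test.

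**Figure D1:**
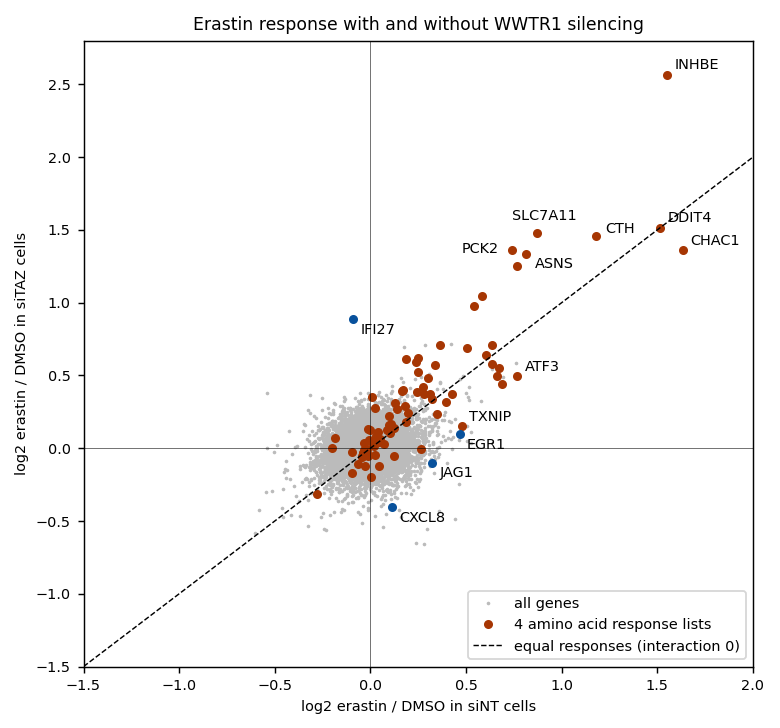
Log2 erastin response of each of 11963 genes in siNT cells (horizontal axis) against siTAZ cells (vertical axis), with the 4 amino acid response lists in orange and 4 other named genes in blue. Points on the dashed line have an interaction of 0; INHBE lies 1.01 above it, CHAC1 0.27 below it and DDIT4 on it.

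The genes nearest to the threshold were an asparagine synthetase, an activin-family subunit and the erastin target itself. ASNS, which makes asparagine from aspartate and glutamine, gave 10.42, 10.42 and 10.36 in siNT cells with DMSO and 11.17, 11.23 and 11.23 with erastin. In siTAZ cells it gave 9.43, 9.38 and 9.42 with DMSO and 10.75, 10.69 and 10.80 with erastin. No 2 of the 4 groups overlapped, and the siTAZ arrays were low in both treatments. ASNS rose by 0.81 ± 0.05 (SE) in siNT cells and by 1.34 ± 0.05 in siTAZ cells (limma adjusted p = 9.25e-06 and 5.71e-08), an interaction of 0.52 ± 0.07 (95% confidence interval 0.37 to 0.68). Leaving out each array in turn gave 0.50 to 0.55, with adjusted p from 0.0615 to 0.27.

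INHBE, the inhibin beta E chain, gave 6.29, 6.25 and 6.24 in siNT cells with DMSO and 7.79, 7.58 and 8.06 with erastin. In siTAZ cells it gave 4.97, 4.97 and 4.85 with DMSO, under the dim level, and 7.43, 7.43 and 7.63 with erastin. The erastin groups overlapped, with the highest siTAZ array at 7.63 and the lowest siNT array at 7.58, while the DMSO groups did not. The rise was 1.55 ± 0.10 in siNT cells and 2.57 ± 0.10 in siTAZ cells, and the interaction was 1.01 ± 0.14 (0.70 to 1.33). It reached 1.14 with a limma adjusted p of 0.00607 without the third array of siNT cells with erastin, the only array whose removal led to a call, and over the other removals the adjusted p went up to 0.27. With the siTAZ DMSO arrays set to the dim level of 5.13 in place of their measured mean of 4.93, the rise in siTAZ cells was at least 2.36 (at least 5.14-fold) and the interaction at least 0.81, so the measured sizes of 2.57 and 1.01 rest on signal under that level.

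SLC7A11, the cystine-binding subunit of system xc-, gave 8.79, 8.87 and 8.88 in siNT cells with DMSO and 9.76, 9.59 and 9.81 with erastin. In siTAZ cells it gave 8.54, 8.59 and 8.58 with DMSO and 10.09, 10.01 and 10.05 with erastin. Unlike ASNS and INHBE it crossed over, with siTAZ arrays below siNT in DMSO (-0.28, limma adjusted p = 0.00443) and above siNT under erastin (0.33, limma adjusted p = 0.00136). Its interaction was 0.61 ± 0.09 (0.42 to 0.80), with a range of 0.54 to 0.65 when single arrays were left out. Of its other probe sets, the brighter gave 0.60 and the dimmer -0.11, and the mean of all 3 gave 0.37.

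**Figure D2:**
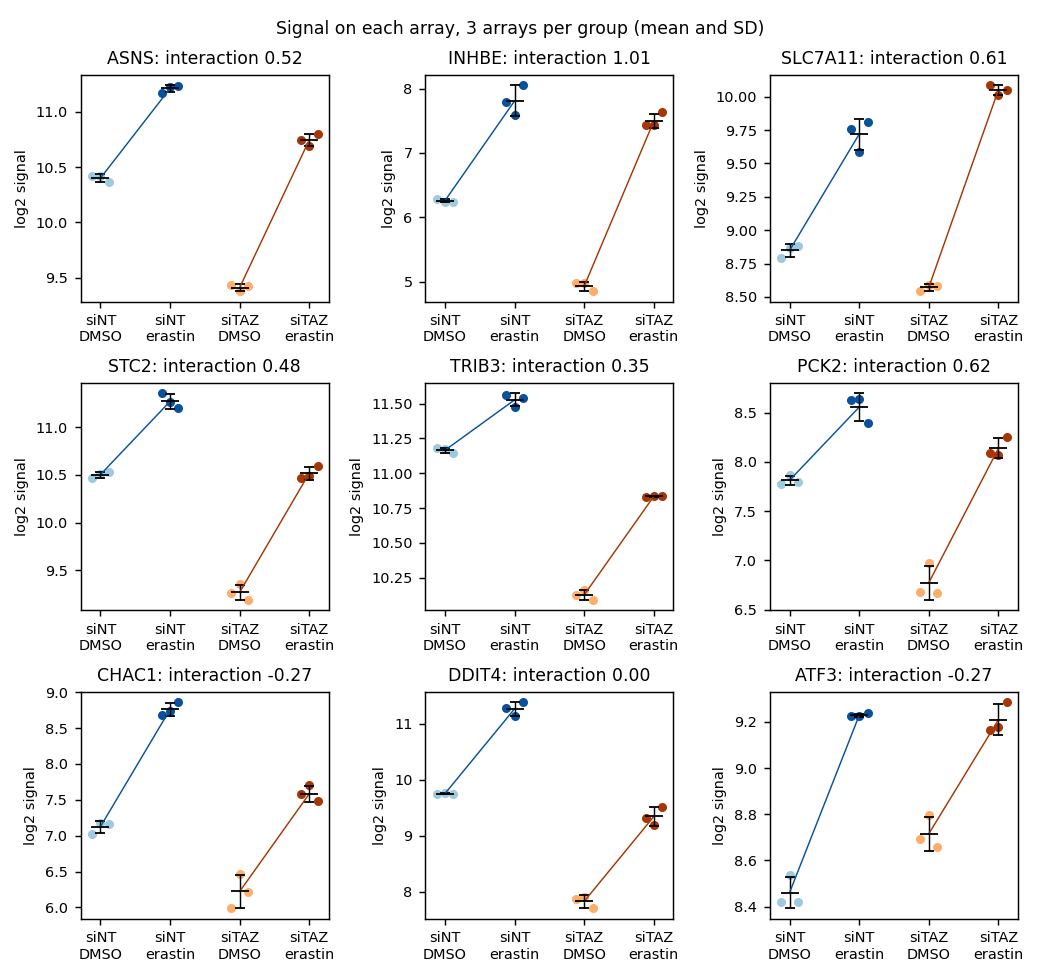
Deposited log2 signal on each of the 12 arrays (points), with the group mean and SD of 3 arrays, for 9 amino acid response genes; lines join DMSO and erastin within each siRNA. The siTAZ line is the steeper for ASNS, INHBE, SLC7A11, STC2, TRIB3 and PCK2, the lines run parallel for DDIT4, and the siNT line is the steeper for CHAC1 and ATF3.

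The composite element that C/EBP and ATF4 partners are known to bind was looked for in the promoters of amino acid response genes. The letters TGATGNAA were searched on both strands of RefSeq promoters (GRCh38.p14, 250 bases before to 50 after the start, 300 bases in all). They occurred in 215 of 9563 promoters of measured genes (2.25%), in 15 of 68 from the 4 amino acid response lists (22.1%) and in 8 of 28 list members with a called erastin rise (28.6%). The capitals mark the match in 78-base windows read 5′ to 3′ on the strand of the gene. ASNS, with an interaction estimate above 0, is shown beside CHAC1 and ATF3, with estimates below 0, and none of them was called. The windows are chr7:97872434-97872511 (minus strand) for ASNS, chr15:40953227-40953304 (plus strand) for CHAC1 and chr1:212565181-212565258 (plus strand) for ATF3.
ASNS: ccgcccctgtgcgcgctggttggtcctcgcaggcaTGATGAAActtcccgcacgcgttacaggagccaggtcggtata
CHAC1: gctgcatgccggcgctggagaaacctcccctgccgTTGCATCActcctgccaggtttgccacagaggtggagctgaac
ATF3: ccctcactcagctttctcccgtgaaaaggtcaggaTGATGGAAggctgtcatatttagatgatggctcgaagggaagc
Measured from the transcription start, the match begins at -68 in ASNS, -209 in CHAC1 and -191 in ATF3, and in CHAC1 it is read on the opposite strand. Of the 8 risers with a match, 4 had an interaction above 0 (ASNS, CARS1, AARS1 and TARS1, from 0.11 to 0.52). The other 4 lay below 0 (CHAC1, ATF3, GOT1 and SLC3A2, from -0.27 to -0.08). The rises of AARS1 and TARS1 were called in siTAZ cells alone, and those of GOT1 and SLC3A2 in siNT cells alone. Choosing genes by these calls sets part of the split. The confidence intervals of AARS1, TARS1, CHAC1, GOT1 and SLC3A2 also spanned 0. The split therefore cannot tie the match to either direction. A match is a description of these letters, not a bound site. The TEAD core GGAATG was present in 1082 of 9563 promoters (11.3%) and in 3 of 68 list members (4.41%). Of the 13 list members with an interaction above 0 at an unadjusted p under 0.05 and a promoter entry, 2 held the composite core (15.4%) and 0 the TEAD core. The antioxidant response element core TGACNNNGC was in 5 of these 13 (38.5%), in 15 of 68 list members (22.1%) and in 1424 of all 9563 promoters (14.9%).

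As a family, the amino acid response genes held more interactions above 0 than below at the unadjusted threshold. Of 100 genes in 4 lists, 82 were measured and 7 of these were dim, and their median interaction was 0.04 against 0.02 over all genes. At an unadjusted p under 0.05, 19 lay above 0 (23.2%, against 3.98% of all genes) and 3 below (3.66%, against 2.41%), and none passed adjustment. Erastin raised 36 of the 82, 30 in siNT cells (against 0.527% of all genes), 30 in siTAZ cells (against 0.460%) and 24 in both. Of these 36, 25 had the larger rise in siTAZ cells and 11 the smaller, with a median rise of 0.45 in siNT cells, 0.58 in siTAZ cells and a median interaction of 0.16. Every one called in siTAZ cells alone rose more there, and every one called in siNT cells alone rose more in siNT cells. Choosing genes by calls on these same arrays favours this, so the choice sets part of the split. Over all 89 genes with a called erastin rise in either background, these 36 included, 46 had the larger rise in siTAZ cells, and 6662 of all 11963 interactions lay above 0. The lists were drawn up with earlier results of these data known, so their lean is a description and not independent evidence.

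The stress factors and inhibitors of the ATF4 pathway split. Of 22 measured, 7 lay above 0 at an unadjusted p under 0.05 (31.8%, against 3.98% of all genes) and 2 below (9.09%, against 2.41%). Erastin raised 14 in siNT cells and 12 in siTAZ cells, against 0.527% and 0.460% of all genes. TRIB3, a pseudokinase that restrains ATF4, gave 11.18, 11.17 and 11.14, then 11.56, 11.48 and 11.54 with erastin in siNT cells, and 10.13, 10.17 and 10.09, then 10.83, 10.84 and 10.84 in siTAZ cells. Its rise was 0.36 in siNT cells and 0.71 in siTAZ cells, and the interaction was 0.35 ± 0.07 (0.20 to 0.49) with no overlap between groups. The secreted glycoprotein STC2 had an interaction of 0.48 ± 0.09, from rises of 0.77 and 1.25, and 0.38 on its second probe set. NUPR1, a small stress-induced chromatin protein, had 0.46 ± 0.14, and CEBPG, a C/EBP partner of ATF4, 0.23 ± 0.08. With the 3′ minus 5′ signal of the actin control probe sets, a measure of RNA quality, as a covariate, NUPR1 had 0.20, and 4 members of this list rather than 7 lay above 0 at the same threshold.

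Other members of the same list had equal or smaller rises in siTAZ cells. CHAC1, which degrades glutathione, gave 7.03, 7.18 and 7.16, then 8.68, 8.73 and 8.86 in siNT cells, and 5.99, 6.46 and 6.21, then 7.57, 7.70 and 7.48 in siTAZ cells. It rose by 1.63 and 1.36, and the interaction was -0.27 ± 0.15 (-0.60 to 0.05). DDIT4, an inhibitor of mTORC1, gave 9.74, 9.77 and 9.75, then 11.29, 11.14 and 11.38 in siNT cells, and 7.87, 7.91 and 7.70, then 9.32, 9.19 and 9.52 in siTAZ cells. Its siTAZ arrays were lower in both treatments without overlap, yet it rose by 1.52 in each background, an interaction of 0.00 ± 0.13 (-0.28 to 0.28).

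ATF3, an immediate early factor that ATF4 induces, gave 8.42, 8.54 and 8.42, then 9.22, 9.22 and 9.24 in siNT cells, and 8.69, 8.80 and 8.66, then 9.16, 9.18 and 9.29 in siTAZ cells. Its erastin groups overlapped and its DMSO groups did not, and the interaction was -0.27 ± 0.08 (-0.45 to -0.09; limma adjusted p = 0.77). TXNIP, an inhibitor of thioredoxin, had -0.33 ± 0.08, and -0.47 and -0.26 on its other probe sets. It rose in siNT cells (0.48, limma adjusted p = 0.00122), while in siTAZ cells its value was 0.15 (limma adjusted p = 0.382). ATF4 itself had 0.15 ± 0.08, DDIT3, the pro-apoptotic factor CHOP, 0.03 ± 0.13, and the stress cytokine GDF15 -0.25 ± 0.15, with 0.47 on a dim second probe set of GDF15.

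Of 17 measured enzymes of serine, asparagine, proline and folate metabolism, none lay below 0 at an unadjusted p under 0.05 (2.41% of all genes). Above 0 lay 5 (29.4%, against 3.98% of all genes), CBS among them. Besides ASNS these included PCK2, the mitochondrial phosphoenolpyruvate carboxykinase, at 7.77, 7.87 and 7.80, then 8.63, 8.64 and 8.39 in siNT cells, and 6.67, 6.97 and 6.67, then 8.09, 8.07 and 8.25 in siTAZ cells. Its rise was 0.74 in siNT cells and 1.36 in siTAZ cells, with an interaction of 0.62 ± 0.13 (0.33 to 0.91). The mitochondrial folate enzyme MTHFD2 had an interaction of 0.44 ± 0.09 from rises of 0.54 and 0.98. The serine hydroxymethyltransferase SHMT2 had 0.23 ± 0.08, with -0.07 and 0.28 on its other probe sets and 0.09 with the actin covariate. PSAT1, an aminotransferase of serine synthesis, had -0.16 ± 0.25, and 1 array of siNT cells with erastin stood at 8.37 against 7.49 and 7.59. PHGDH, the first enzyme of that pathway, had 0.14 ± 0.13, and neither PSAT1 nor PHGDH had a called erastin response.

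The transsulfuration enzymes, which make cysteine from methionine, gave weak evidence. CBS had an interaction of 0.36 ± 0.13, but only its mean in siTAZ cells with erastin, 5.44, lay above the dim level, so no size is read from it. It is nonetheless counted among the 5 of 17 enzymes, the 19 of 82 list members and the 25 of 36 risers above 0. CTH rose by 1.18 in siNT cells and 1.46 in siTAZ cells, an interaction of 0.28 ± 0.14 (-0.02 to 0.58), and its second probe set gave -0.28.

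The transporters leaned less. Of 19 measured, 2 lay above 0 at an unadjusted p under 0.05 (10.5%, against 3.98% of all genes) and 1 below (5.26%, against 2.41%). Those above were SLC7A11 and the neutral amino acid carrier SLC1A4 (0.18 ± 0.08, with 0.34, 0.60 and 0.31 on its other probe sets). SLC3A1, the heavy chain of the renal cystine carrier, was the 1 below 0, at -0.27 ± 0.07, with a rise of 0.26 in siNT cells and a value of 0.00 in siTAZ cells. SLC3A2, the heavy chain that pairs with SLC7A11, had -0.08 ± 0.10, and SLC7A5, the leucine carrier that uses the same heavy chain, 0.09 ± 0.07. The SLC7A11 value thus had no counterpart in the other subunit of the erastin target.

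Of 24 aminoacyl-tRNA synthetases, which charge tRNAs, 5 lay above 0 at an unadjusted p under 0.05 (20.8%, against 3.98% of all genes) and none below (2.41%). The cytosolic cysteinyl enzyme CARS1 gave 12.03, 12.11 and 12.04, then 12.31, 12.26 and 12.37 in siNT cells, and 11.47, 11.47 and 11.48, then 12.07, 12.10 and 12.11 in siTAZ cells. It rose by 0.25 in siNT cells and 0.62 in siTAZ cells, an interaction of 0.37 ± 0.07 (0.22 to 0.52), with 0.44 on its second probe set. WARS1, YARS1 and GARS1 had 0.27, 0.23 and 0.18, with WARS1 at 0.03 on its second probe set. The mitochondrial LARS2 had 0.20, without a called erastin response. The count was 3 without the second array of siNT cells with DMSO, the second of siNT cells with erastin or the first of siTAZ cells with erastin.

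**Figure D3:**
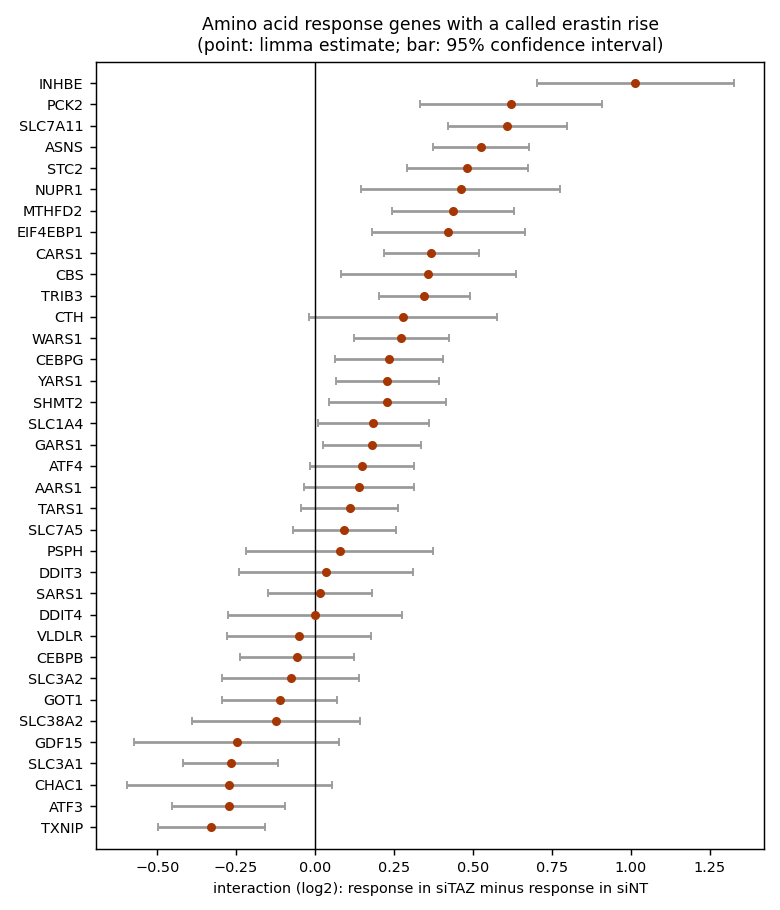
Interaction with its 95% confidence interval (log2, limma, 3 arrays per group) for the 36 amino acid response genes with a called erastin rise, ordered by value. The points run from -0.33 at TXNIP to 1.01 at INHBE, with 25 above 0 and 11 below, and none passed adjustment over all genes. Choosing genes by a call in either background sets part of this split.

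Most of these genes began lower after WWTR1 silencing. Of the 36 risers, siTAZ lowered 28 and raised 3 in DMSO, and lowered 24 and raised 4 under erastin (over all genes, 13.9% lowered and 14.7% raised in DMSO, 12.6% and 15.6% under erastin). These comparisons share their DMSO or erastin arrays with the interaction, so a low siTAZ value in DMSO enters both. The scale therefore mattered. On the linear scale, where the deposited value is raised as a power of 2, ASNS gained 1020 ± 35.4 (SE) signal units in siNT cells and 1037 ± 38.7 in siTAZ cells, a difference of 17.8 ± 52.4. INHBE gained 150.0 ± 21.8 and 150.5 ± 8.59.

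For ASNS and INHBE the gain in siTAZ cells was thus 102% and 100% of that in siNT cells, from DMSO signals that differed. SLC7A11 gained 384 ± 39.5 in siNT cells and 681 ± 16.3 in siTAZ cells, 177% of the siNT gain, so it was larger in siTAZ cells on both scales. CARS1 likewise gained 814 and 1524 units (187%).

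TRIB3, PCK2 and MTHFD2 lay between, at 108%, 113% and 114% of the siNT gain. STC2 turned round, at 83.2% (a difference of -172 ± 93.3 units), as did CTH at 67.3%. DDIT4, with equal log2 rises, gained 26.4% as much signal in siTAZ cells, and CHAC1 39.8%. Over the 36 risers, 20 gained more signal in siTAZ cells and 16 less, and 5 had the larger log2 rise but the smaller gain in siTAZ cells. These counts too depend in part on how the 36 were chosen.

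**Figure D4:**
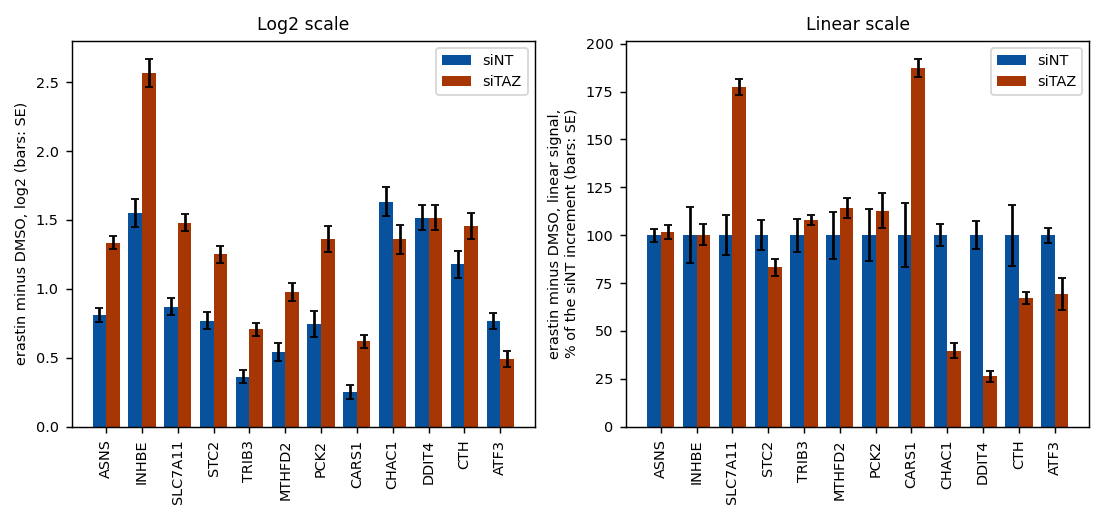
Erastin minus DMSO in siNT (blue) and siTAZ (orange) cells for 12 amino acid response genes, on the log2 scale (left) and as linear signal in percent of the siNT gain (right); bars are means of 3 arrays per group and whiskers are SE. ASNS and INHBE differ on the left and are near 100% on the right, SLC7A11 and CARS1 exceed 175% on the right, and DDIT4 is equal on the left and 26.4% on the right.

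Outside the amino acid response, targets of NRF2, the antioxidant transcription factor, held more interactions below 0 than above at the unadjusted threshold. Of 24 measured, 10 lay above 0 at any p and the median was -0.06. Among them 5 lay below 0 at an unadjusted p under 0.05 (20.8%, against 2.41%) and 1 above, SLC7A11. The haem oxygenase HMOX1 gave 10.16, 10.18 and 10.10, then 10.76, 10.81 and 10.94 in siNT cells, and 9.28, 9.35 and 9.34, then 9.84, 9.74 and 9.85 in siTAZ cells. It rose by 0.69 and 0.49, an interaction of -0.20 ± 0.08 (-0.39 to -0.02; limma adjusted p = 0.77), and -0.06 with the actin covariate. The other 4 were the epoxide hydrolase EPHX1 (-0.41 ± 0.13), the aldo-keto reductases AKR1C1 (-0.29 ± 0.10) and AKR1C3 (-0.22 ± 0.08), and NFE2L2, which encodes NRF2 (-0.18 ± 0.08). The count below 0 was 3 without the third array of siNT cells with DMSO or the third of siNT cells with erastin, and 2 with the actin covariate.

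Immediate early genes are the first genes induced by growth factor and stress signals. Of 34 measured, 8 lay below 0 at an unadjusted p under 0.05 (23.5%, against 2.41% of all genes) and 1 above (2.94%, against 3.98%). EGR1, a zinc finger factor, averaged 8.01 ± 0.01 (SD, n = 3) with DMSO and gave 8.54, 8.42 and 8.46 with erastin in siNT cells, and 8.79, 8.76 and 8.83, then 8.79, 8.87 and 9.01 in siTAZ cells. It rose in siNT cells by 0.47 and had a value of 0.10 in siTAZ cells, where its arrays overlapped between treatments, and its interaction was -0.37 ± 0.09 (-0.56 to -0.18). DUSP1, a MAP kinase phosphatase, had -0.27 ± 0.10, MYC -0.24 ± 0.10 and the zinc finger factor KLF6 -0.23 ± 0.10, with -1.03 and 0.11 on other KLF6 probe sets. With the actin covariate DUSP1, MYC and KLF6 had -0.08, -0.09 and -0.05. The count below 0 fell to 3 without the third array of siNT cells with DMSO, to 4 without the first or the third of siTAZ cells with DMSO or the second of siTAZ cells with erastin, and to 5 without the second of siNT cells with DMSO or the third of siTAZ cells with erastin, with the actin covariate or with the replicate block.

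Of 42 genes of G2 and M phase, 9 lay above 0 at an unadjusted p under 0.05 (21.4%, against 3.98%), none below, and the median interaction was 0.10. The values were small and came from opposite signs. CDC25C, the phosphatase that starts mitosis, had -0.16 in siNT cells and 0.15 in siTAZ cells (interaction 0.31 ± 0.08), UBE2C -0.15 and 0.13 (0.28 ± 0.11) and AURKB -0.14 and 0.12 (0.26 ± 0.10). UBE2C had 0.12 with the actin covariate, and CDC25C 0.06 on its second probe set. None of these single responses was called, and no gene of the list had a called erastin response in either background. The count was 4 without the third array of siTAZ cells with DMSO and 5 without the third of siTAZ cells with erastin or with the replicate block. Of 42 S phase genes, 4 lay above 0 (9.52%) and none below, and 2 without either of the same arrays.

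Of 32 interferon-stimulated genes, 7 lay above 0 at an unadjusted p under 0.05 (21.9%, against 3.98% of all genes) and none below (2.41%). Their median was 0.11. IFI27 gave 7.35, 7.54 and 7.46, then 7.35, 6.91 and 7.82 in siNT cells, and 7.02, 7.03 and 7.15, then 7.57, 7.87 and 8.42 in siTAZ cells. Its interaction of 0.98 ± 0.31 (0.31 to 1.65) was the second largest above 0, but the erastin arrays of both backgrounds spread widely and overlapped. IFI6, IFITM1 and ISG15 had 0.52 ± 0.23, 0.42 ± 0.16 and 0.33 ± 0.13, and IFITM1 rose in siTAZ cells (0.71, limma adjusted p = 0.0156). The count was 2 without the second array of siNT cells with erastin or the third of siTAZ cells with erastin, 3 without the first of siNT cells with erastin or the first of siTAZ cells with DMSO, and 4 without the second of siTAZ cells with erastin.

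**Figure D5:**
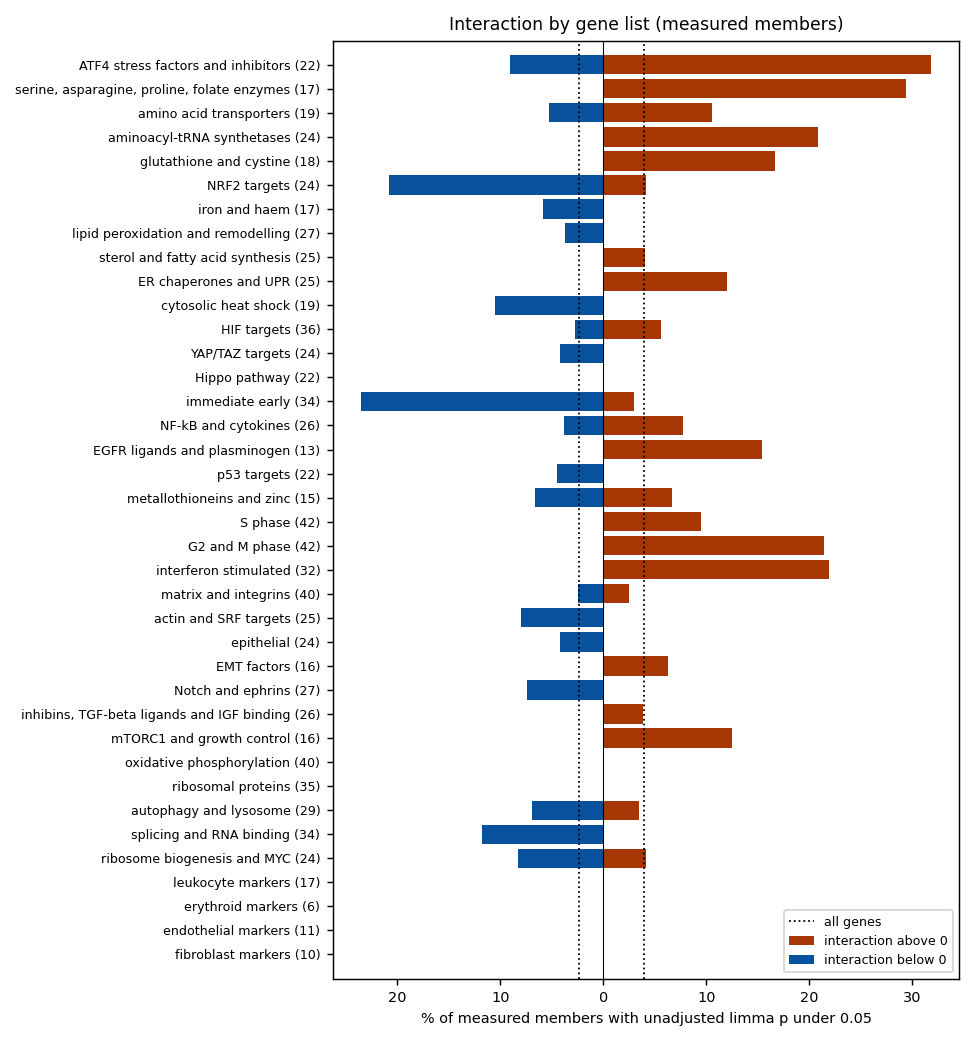
Share of measured members of each of 38 gene lists (number measured in brackets) with an unadjusted interaction p under 0.05 in limma, above 0 (orange, right) and below 0 (blue, left); dotted lines mark all genes, 3.98% and 2.41%. The ATF4, serine and folate, synthetase, G2 and M phase and interferon lists extend to the right, and the NRF2 and immediate early lists to the left.

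Among the remaining lists, 4 of 34 genes of splicing and RNA binding lay below 0 at an unadjusted p under 0.05 (11.8%, against 2.41% of all genes) and none above. That count was 0 with the actin covariate, 1 with array weights, without the first array of siTAZ cells with DMSO or without the third of siTAZ cells with erastin, 2 without the third of siNT cells with DMSO, and 8 with a trended prior. Of 19 cytosolic heat shock genes, 2 lay below 0 (10.5%, against 2.41% of all genes), and none with the actin covariate. The following lists had at most 3 genes above 0 at this threshold (3.98% of all genes) and none below. Glutathione and cystine handling had 3 of 18 (16.7%, SLC7A11 and CBS among them) and endoplasmic reticulum chaperones 3 of 25 (12%). EGFR ligands and plasminogen activation had 2 of 13 (15.4%). Control of mTORC1 had 2 of 16 (12.5%), with EIF4EBP1, a translation inhibitor, at 0.42 ± 0.11. EIF4EBP1 also belongs to the list of ATF4 stress factors and inhibitors and was already counted there. Each of the other lists in the plot of shares by list had at most 2 genes in either direction.

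In the lists of YAP/TAZ targets and of lipid peroxidation, the shares under the unadjusted threshold were near those of all genes. Of 24 YAP/TAZ target genes, 0 lay above 0 at an unadjusted p under 0.05 in limma (3.98% of all genes) and 1 below (4.17%, against 2.41%). That gene was DLC1 (-0.34 ± 0.12, and -0.20 with the actin covariate). The list had a median of -0.07 and no called erastin response. The lowest value of the list was that of ASAP1, -0.47 ± 0.26 (-1.04 to 0.10). CCN1 had -0.11 ± 0.09, CCN2 0.05 ± 0.14, ANKRD1 -0.07 ± 0.16, and YAP1 0.01 ± 0.10. EMP1, a membrane protein linked to TAZ and ferroptosis in renal cancer, had 0.14 ± 0.18, with a 95% confidence interval of -0.26 to 0.55. The intervals of these genes ran as far as -1.04 for ASAP1 and 0.55 for EMP1, so these values do not show that the responses are alike.

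Of 27 genes of lipid peroxidation and remodelling, none lay above 0 at an unadjusted p under 0.05 (3.98% of all genes) and 1 below (3.7%, against 2.41%). That gene was AGPS (-0.44 ± 0.15, and -0.14 with the actin covariate), an enzyme of ether lipid synthesis. GPX4 had 0.15 ± 0.11 (-0.08 to 0.37), ACSL4, which activates polyunsaturated fatty acids, -0.27 ± 0.21 (-0.73 to 0.20), and the transferrin receptor TFRC 0.00 ± 0.07 (-0.16 to 0.16). GCH1, which supplies the antioxidant tetrahydrobiopterin, had 0.12 ± 0.18. The HIF target VEGFA had 0.17 ± 0.09. No gene of the Hippo pathway (22 measured), oxidative phosphorylation (40) or ribosomal protein (35) lists had an unadjusted limma p under 0.05, against 6.39% of all genes. At that share lists of this length would hold few such genes, so these counts say little about the families.

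Other genes near the top of the ranking, most of them with a called erastin response in 1 background, had differences that did not pass adjustment. JAG1, a Notch ligand, gave 11.68, 11.72 and 11.55, then 11.95, 11.96 and 12.02 in siNT cells, and 11.80, 11.79 and 11.87, then 11.73, 11.68 and 11.76 in siTAZ cells. It rose by 0.32 in siNT cells (limma adjusted p = 0.025) with -0.10 in siTAZ cells (limma adjusted p = 0.586), and the interaction was -0.42 ± 0.08 (-0.60 to -0.25). Its other probe sets gave -0.33, -1.07 and, at a dim level, -0.02. The siTAZ effect on JAG1 was 0.17 in DMSO and -0.25 under erastin, both called.

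ASS1, which makes argininosuccinate, rose by 0.35 in siNT cells with 0.00 in siTAZ cells (interaction -0.34 ± 0.07), and ALDH1A1, a retinaldehyde dehydrogenase called in neither background, had -0.41 ± 0.09, and -0.26 with the actin covariate. The chemokine CXCL8 gave 9.67, 9.69 and 9.57, then 9.68, 9.69 and 9.89 in siNT cells, and 9.34, 9.31 and 9.24, then 8.85, 8.93 and 8.88 in siTAZ cells. It fell in siTAZ cells by 0.41 (limma adjusted p = 0.0155) with 0.11 in siNT cells, and the interaction was -0.52 ± 0.09, and -1.33 on its second probe set. LTB, a lymphotoxin chain, fell in siNT cells by 0.43 with 0.12 in siTAZ cells (interaction 0.54 ± 0.10). Of the 20 genes with the lowest interaction p, 12 lay above 0. A called erastin response in at least 1 background was held by 14, against 130 of all 11963 genes (1.09%). The interaction is the difference of these responses on the same arrays, so choosing genes by it favours such calls.

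Some of the largest values rested on single arrays. FOLR1 (0.92 ± 0.45) had 1 array of siNT cells with erastin at 7.88 against 9.56 and 9.24, and without it the interaction was 0.42. SGPP1 (-0.94 ± 0.49) ranged from 6.52 to 8.04 within siNT cells with erastin. A measure of RNA quality also differed between groups. The 3′ minus 5′ signal of the actin control probe sets averaged 2.68 ± 0.28 and 2.26 ± 0.69 (SD, n = 3) in siNT cells with DMSO and erastin, and 2.65 ± 0.04 and 3.25 ± 0.33 in siTAZ cells, an interaction of 1.02 ± 0.47 (SE). The corresponding GAPDH value stayed between 0.15 and 0.20. For actin, the third array of siNT cells with erastin stood at 1.49, against 2.82 and 2.47 in its group. Since the actin signal itself differed along the interaction, values fitted with it as a covariate are an alternative and not a correction. With the actin signal as a covariate, limma called 0 genes at a lowest adjusted p of 0.0535, and the interactions of ASNS, INHBE and SLC7A11 were 0.58, 1.24 and 0.66. Of 73 genes examined singly, the covariate made the interaction smaller by over 1.5 times in 12, NUPR1, HMOX1, MYC, UBE2C, AGPS, DUSP1 and KLF6 among them, larger by over 1.5 times in 6 and of opposite sign in 12.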

How the data were processed

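The authors deposited log2 signal values of 12 Affymetrix arrays, 3 in each of 4 groups, made with Affymetrix Expression Console and RMA (background correction, quantile normalisation and probe summary), per the submitters' processing notes; versions and genome build were not given in the sources used here. RMA pulls arrays to a common distribution and compresses folds near background. Array medians ran from 6.48 to 6.54 and values from 2.02 to 14.4; scanner intensities were not used here. Precision is limited by the 3 arrays per group.

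Of 22277 probe sets, 62 controls, 1043 with several genes and 2108 with no gene symbol in the GEO platform annotation were left out, and the brightest of each gene's probe sets over all arrays stood for the gene (11963 genes, 4310 with more than 1 probe set). Of the 19064 probe sets with 1 symbol, 19052 matched a RefSeq gene. A gene was dim where its highest group mean was under 5.13, the 75th percentile of leukocyte and erythroid marker means (3085 genes); dim genes stayed in the fit. Group means were fitted with limma 3.58.1 in R 4.3.3 (lmFit and eBayes; 8 residual and 3.90 prior degrees of freedom), p-values were adjusted by Benjamini-Hochberg over all genes, and genes under 0.05 were called. The code was tested on simulated data. With 3 arrays against 3, an exact permutation test could not go below 0.1 for one response.

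The members and the 38 gene lists were chosen with earlier results of these data known. Genes were named from a fixed list of 29 (27 measured) and, per list, as the 4 with the largest erastin response, with further ones had any interaction been called. AARS1, AKR1C3, ALDH1A1, ASS1, AURKB, CDC25C, CEBPG, CXCL8, DLC1, DUSP1, FOLR1, GCH1, GOT1, ISG15, KLF6, LARS2, LTB, NFE2L2, NUPR1, SGPP1, SHMT2, SLC3A1, SLC7A5, TARS1 and UBE2C were named after their values were seen. Array numbers did not pair the arrays: correlations of deviations between same-numbered arrays ran from -0.42 to 0.36 (median -0.06), against -0.42 to 0.34 for other pairs. Alternatives covered scaling, dim-gene filters, probe set choice, the variance prior, array weights, the replicate block, an actin covariate and leaving out each array; testing each probe set, linear signal and the bound on INHBE were chosen after seeing the data.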

Additional observations from a re-analysis of the deposited data

How the results depend on the processing

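Calls of the interaction moved from 0 to 3 (all above 0) with array median centring, a second quantile normalisation, genes under the 25th percentile left out or array weights, to 8 (6 above, 2 below) with genes under the 50th percentile left out and to 11 (7 above, 4 below) with a trended prior. They ran from 0 to 1 over the 12 leave-one-out fits and were 0 elsewhere. Medians shifted by -0.0073 and -0.0134 with the scalings. Genes with an unadjusted p under 0.05 numbered 564 to 1083 in leave-one-out fits, 348 to 630 above 0 and 183 to 453 below. They numbered 1320 (758 above, 562 below) over each probe set on its own, and those below 0 numbered 445 with a second quantile normalisation, 452 with a trend and 446 with array weights.

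Erastin calls in siNT cells were 222 with the 50th percentile filter, 181 with a trend, 324 with array weights, 28 with a size of at least 0.5, 62 over each probe set and 30 to 79 in leave-one-out fits (30 without the first array of siNT cells with erastin); in siTAZ cells they were 157, 163, 166 and 26 in the first 4 of these, and 30 to 81 in leave-one-out fits (30 without the first array of siTAZ cells with DMSO). siTAZ calls were 888 in DMSO and 878 under erastin with a size of at least 0.5, 5064 under erastin over each probe set, and 2809 to 3704 and 2775 to 3398 in leave-one-out fits. With the replicate number as a block, which does not pair the arrays, the interaction had 0 calls at a lowest adjusted p of 0.197, and erastin calls were 39 and 34.

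Signs turned for some genes. With the actin covariate, DDIT4 gave 0.14, DDIT3 -0.16, ANKRD1 0.18, GPX4 -0.0056, TFRC 0.0035, PSAT1 0.44, SLC3A2 0.0547, GOT1 0.0016, FOLR1 -0.16, SGPP1 0.29, GDF15 0.0258 and PHGDH -0.0709. DDIT4 gave 0.041, TFRC 0.0254 and YAP1 -0.0089 after a second quantile normalisation, YAP1 -0.0004 after centring, and DDIT4 0.0085, DDIT3 -0.0418 and PSAT1 0.17 with array weights. Second probe sets gave CTH -0.28, EMP1 -0.16, SHMT2 -0.0685 and GDF15 0.47, and the mean of probe sets GDF15 0.11. Linear signal gave STC2 -172, CTH -95.3, DDIT3 -30.1, CCN2 -2.5 and SLC7A5 -4.49. Leave-one-out fits ran from -0.0886 to 0.0779 for DDIT4, -0.0438 to 0.11 for DDIT3, -0.0649 to 0.14 for CCN2, -0.17 to 0.041 for ANKRD1, -0.0301 to 0.0241 for TFRC, -0.33 to 0.11 for PSAT1 and -0.0499 to 0.0598 for YAP1. The cause was not tested. Single further probe sets gave SLC7A11 -0.11, AKR1C1 0.10, WWTR1 0.09, KLF6 0.11 and VEGFA -0.0032.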
